A study of Mus musculus with 2 samples.

Results

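The response of CREBH KO mouse liver to fasting was read as the difference between the KO liver of mice fasted for 24 h and the KO liver of mice fed ad lib. RNA of pooled livers was labelled with Cy5 and hybridised to 1 array per feeding state, with RNA of pooled WT livers in Cy3 on the same array. The 4 pools were thus KO fed, KO fasted, WT fed and WT fasted, all on the C57B6J background, and the KO mice were CREBH null. Age, sex, the number of mice in a pool and the part of the gene that was removed are not given in the labels. Genes entered the comparison only with a probe well above background in Cy5 on both arrays, which held for 11785 of the 20284 genes that could be named. At this limit, ranked by the dimmer of both arrays, the lowest genes inside were Nfe2 (log2 signal 6.41 fed and 6.07 fasted), Mc5r (6.31 and 6.09) and Nat14 (6.50 and 6.10). By the same ranking the highest genes outside were Casp14 (6.49 and 6.41), Zfp74 (6.39 and 6.77) and Kcnj8 (6.38 and 6.48), each well above background on the fasted array only.

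CREBH is the product of Creb3l3, a transcription factor of the CREB family that is made mainly in liver and small intestine and sits in the membrane of the endoplasmic reticulum until cleavage releases its active part. During a fast the liver takes up fatty acids from adipose tissue, oxidises them in mitochondria and peroxisomes and turns them into ketone bodies, a programme led by the nuclear receptor PPARα. Over the same hours insulin falls, and with it the synthesis of fatty acids driven by SREBP1c and ChREBP, while CREBH is known for inducing secreted and lipid-handling genes such as Fgf21 and Apoa4.

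All values are normalized log2 signals of the KO pools, and a difference is fasted minus fed, so that 1 on this scale is 2-fold. With 1 pool per group there was no replicate and no test, and 2-fold served as the rule of size. Probes printed 10 times on each array gave the spot error only: the fasted minus fed difference had a median SD of 0.080 between spots over 242 such probes, 0.103 among the dimmer and 0.062 among the brighter of them. The spread between mice is not in that figure. The background offset draws differences towards 0, and in simulated arrays a true difference of 2 was read as 1.68 and one of -2 as -1.42 (medians over 50 probes each).

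Over all 11785 genes the median difference was 0.01, with quartiles of -0.21 and 0.24. In the fasted KO pool 305 genes (2.59% of those measured) passed 2-fold upwards and 247 (2.1%) downwards, 552 (4.68%) in all. Higher genes were thus 55.3% of the 552, a share that became 93.6% (1164 higher, 80 lower) when the arrays were not brought to a common scale. Without that step the median of all genes stood at 0.44, so the split between higher and lower rests on the assumption that most genes did not shift, and differences below are relative to that median. Large differences were few: 33 genes were at least 4-fold higher and 32 at least 4-fold lower, 13 and 8 at least 8-fold, and 5 and 2 at least 16-fold. At the edge of the rule, H3c15 (1.002) and Acsm3 (1.001) lay just inside and Srgn (0.9998) and Krtap11-1 (0.9992) just outside on the higher side. On the lower side G6pdx (-1.00004) and Acox3 (-1.0002) lay inside and C9 and Adgrf1 (both -0.998) outside, steps smaller than the median spot SD of 0.080. In WT, measured in the other channel of the same arrays, 270 of 11441 genes (2.36%) were at least 2-fold higher and 220 (1.92%) at least 2-fold lower, 4.28% in all.

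**Figure D1:**
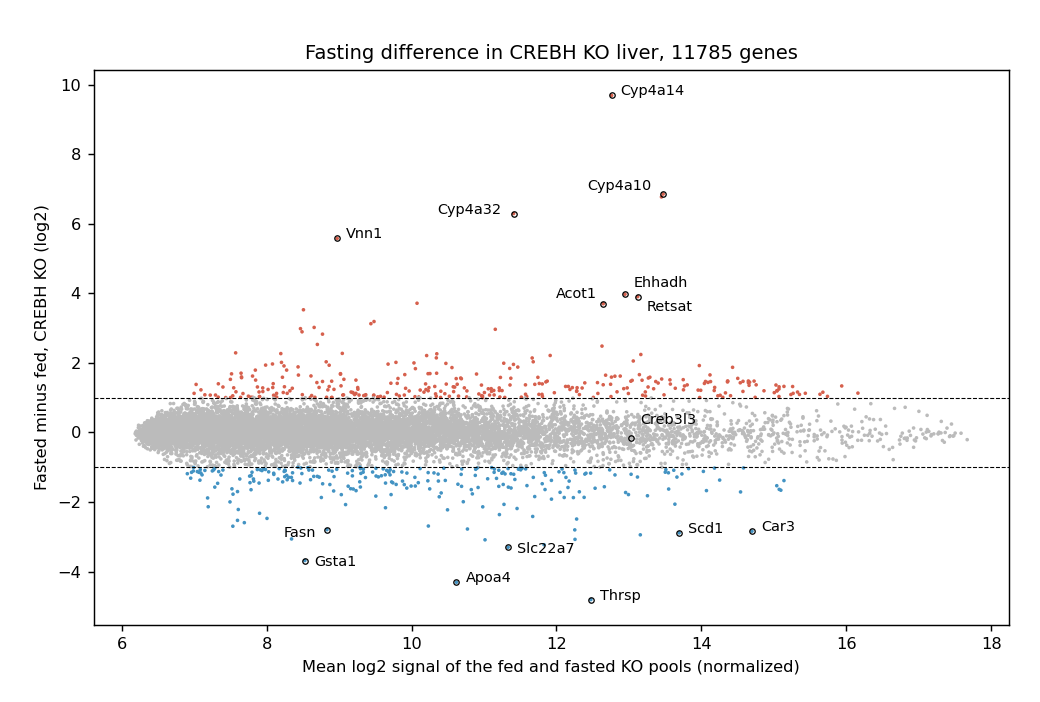
Fasted minus fed difference in CREBH KO liver (log2, vertical axis) against the mean normalized log2 signal of both KO pools (horizontal axis), 1 point per gene for 11785 genes. Red and blue points are the 305 genes at least 2-fold higher and the 247 at least 2-fold lower, dashed lines mark 2-fold, and circled genes are named. Cyp4a14 stands at 9.69 and Thrsp at -4.80, while Creb3l3 lies at -0.16.

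Creb3l3 itself gave a log2 signal of 13.12 in the fed and 12.95 in the fasted KO pool, a difference of -0.16. In the WT pools the same probe read 13.997 fed and 15.03 fasted, a difference of 1.03. The probe thus kept a bright signal in the KO channel, and the sources used here do not say whether it lies within the deleted part, so it is no check of the genotype labels. Other bZIP factors of the same membrane-bound family differed little in the KO pools. Creb3 read 9.27 and 9.52, Creb3l1 7.18 and 6.97, and Creb3l2 7.35 and 6.94. The site-1 protease gene Mbtps1, whose product cleaves such factors, read 11.44 and 11.02.

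The highest 4 genes were all microsomal fatty acid hydroxylases of the Cyp4a family, which start the omega oxidation of fatty acids. Cyp4a14 rose in signal from 7.92 in the fed to 17.61 in the fasted KO pool, a difference of 9.69 or 824-fold. Cyp4a10 went from 10.05 to 16.90 (6.85, with its 3 probes between 6.85 and 7.50) and Cyp4a31 from 10.06 to 16.83 (6.77, 3 probes between 5.65 and 6.77). Cyp4a32 went from 8.26 to 14.55, a difference of 6.29. The fasted signal of these genes was near the top of the array's scale, although no gene spot was saturated, and the probes of near-identical family members may read each other's transcript. In the WT pools the same genes were higher by 4.55, 4.504, 4.25 and 5.05. The WT signal of Cyp4a14 was 11.69 fed and 16.24 fasted, so that the KO pool was the lower of both genotypes when fed and the higher when fasted, a difference without a test. Since KO was in Cy5 and WT in Cy3 on both arrays, genotype and dye cannot be told apart in that comparison of signals.

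Vnn1, a pantetheinase of coenzyme A turnover and a known PPARα target, followed with signals of 6.18 and 11.76. Its difference of 5.58 starts from a fed signal near the background limit and moved between 5.58 and 7.79 over the settings tried. Next came Ehhadh, the bifunctional enzyme of peroxisomal beta oxidation, at 10.96 and 14.93 (3.97), and Retsat, a retinol saturase, at 11.17 and 15.07 (3.90). Asic5, an ion channel of the acid-sensing family, read 8.22 and 11.93 (3.71). Acyl-CoA thioesterases, which release free fatty acids from their CoA esters, supplied 3 of the 15 highest: Acot1 at 10.79 and 14.50 (3.70), Acot5 at 6.74 and 10.27 (3.53) and Acot3 at 7.88 and 11.002 (3.13). The remaining genes among the highest 15 belong to no single pathway. Tmem43, a nuclear envelope protein, read 7.89 and 11.08 (3.19), and Rad51b, a recombination factor, 7.15 and 10.17 (3.02). Slc16a5, a transporter of the monocarboxylate family, read 6.97 and 9.96 (2.98). Eif4ebp3, a repressor of cap-dependent translation, read 9.67 and 12.64 (2.97).

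At the other end stood genes of lipid synthesis. Thrsp, a regulator of lipogenesis known as Spot14, had the lowest value, with 14.88 fed and 10.07 fasted (-4.80, 27.9-fold lower). Apoa4, an apolipoprotein of triglyceride-rich particles, went from 12.77 to 8.47 in the KO pools (-4.30, 19.8-fold lower) and from 11.09 to 12.78 in WT (1.69). Gsta1, a glutathione transferase, read 10.37 and 6.69 (-3.68, between -5.17 and -3.28 over the settings tried). Slc22a7, the organic anion transporter OAT2, read 12.98 and 9.68 (-3.30). Angptl8, a feeding-induced inhibitor of lipoprotein lipase, read 13.44 and 10.22 (-3.23). The fatty acid elongase Elovl6 (12.56 and 9.47), the lipogenic factor Srebf1 (9.87 and 6.81), the desaturase Scd1 (15.14 and 12.25) and fatty acid synthase Fasn (10.23 and 7.44) differed by -3.08, -3.06, -2.88 and -2.79. The steroid dehydrogenase Hsd3b5 (-3.07) and the cytochrome Cyp2c70 (-2.94), which makes muricholic acids, were also among the 15 lowest. So were the carbonic anhydrase Car3 (-2.84), the fatty acid binding protein Fabp5 (-2.80) and Cyp2c55 (-2.69). The fasted signal of Cyp2c55, 6.19, was near the background limit, and its difference moved between -5.01 and -2.37 over the settings tried. The 29 genes named here kept their sign and their 2-fold difference under all 9 alternative settings. Their differences were far from the 2-fold limit, so this says little of smaller ones. All but Cyp4a10 and Cyp4a31 had 1 measured probe, so settings that change only the choice of probes or spots had little to act on.

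**Figure D2:**
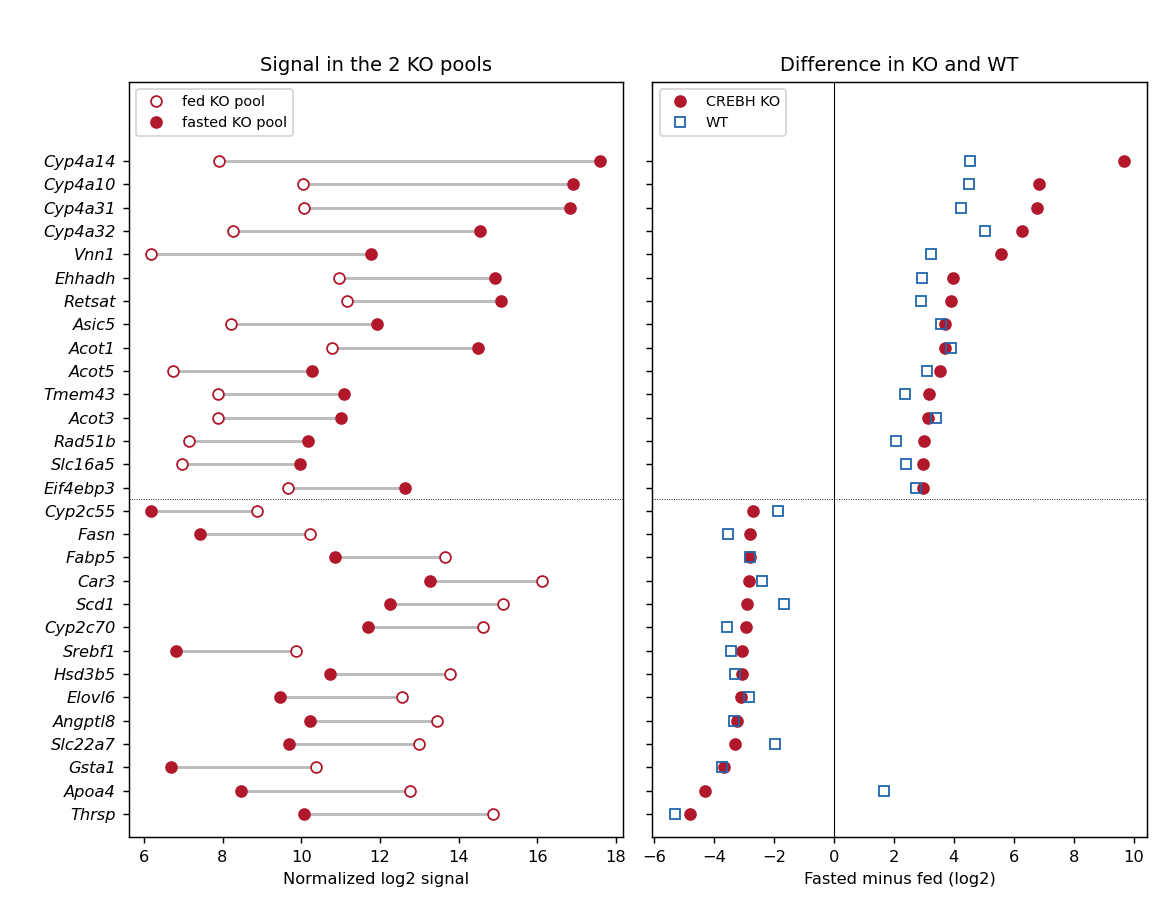
The 15 genes with the highest and 14 of the 15 with the lowest fasted minus fed difference in CREBH KO liver. Left, normalized log2 signal in the fed (open) and fasted (filled) KO pool; right, the log2 difference in KO (filled circles) and WT (open squares). Each point is 1 pool or 1 difference between pools, so there are no error bars. Apoa4 alone among the 29 has the KO (-4.30) and WT (1.69) points on opposite sides of 0.

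Genes seen on 1 array only have a lower bound, set against the faintest signal that counted as well above background on the dim array, or against the dim spot itself where that was brighter. Of 677 genes bright only on the fasted array and with a positive log2 bound, 12 passed 2-fold in this way. Of 207 such genes bright only on the fed array 8 did, and genes without a positive bound are not in these counts. The largest on the fasted side were Gm8909 (at least 8.83-fold higher), the serpin Serpina3i (at least 6.17-fold) and the mitochondrial thioesterase Acot2 (at least 4.91-fold). After them came Nipal1, Tox, Zmynd12, Unc79 and the monoacylglycerol acyltransferase Mogat1, at bounds between 2.13-fold and 2.52-fold. On the fed side Cyp26a1, which clears retinoic acid, was at least 4.01-fold lower when fasted. The secretory-cell factor Bhlha15 was at least 3.97-fold lower, and the citrate carrier Slc13a5 at least 2.34-fold lower. Tmeff2, Serpina12, Fndc5, Sla2 and Dkk4 had bounds between 2.02-fold and 2.61-fold.

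Promoter sequence could be set beside these differences for 9423 measured genes, 243 of them at least 2-fold higher and 196 at least 2-fold lower, using 250 bases before to 50 bases after the gene start (RefSeq, GRCm38.p6). Several leading genes, for example Cyp4a14 and Vnn1, had no promoter sequence available, so the shares below do not cover them. Sequence outside this window was not searched. Motifs were searched on both strands, and each match is a run of letters and not a shown binding site. The direct repeat of PPAR-RXR, AGGTCANAGGTCA, was in 5 of these 9423 genes and in 0 of the 243 higher and 0 of the 196 lower genes. Its looser form AGGNCANAGGNCA was in 0.371% of all measured, 0.412% of the higher and 2.04% of the lower genes. The CREB-family palindrome TGACGTCA was in 3.54%, 3.29% and 1.02%, and its shorter part TGACGT, which every palindrome also holds, in 12.8%, 9.05% and 4.08%. The ATF4 and C/EBP motif TGATGCAA was in 0.785%, 1.65% and 4.08% (8 of 196 lower genes), and the SREBP motif TCACCCCAC in 0.753%, 0.823% and 1.53%. The E-box CACGTG was in 11.6%, 14.4% and 9.18%, the FOXO motif TTGTTTAC in 1.08%, 1.65% and 2.55%, and the interferon motif (GAAA, any 2 bases, GAAA) in 3.79%, 4.53% and 3.57%. Among all 32851 promoters in the table the shares were 0.0396% for the strict and 0.381% for the looser direct repeat, 1.79% for the palindrome, 7.51% for its part, 0.895% for TGATGCAA, 0.551% for TCACCCCAC, 7.15% for CACGTG, 1.23% for TTGTTTAC and 3.44% for the interferon motif.

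Below are 6 stretches, shown because they hold a searched motif (all matches in capitals, read 5′ to 3′ on the gene's strand) in a gene described here. Ehhadh lies on the minus strand at chr16:21787978-21788043, H2-Aa on the minus strand at chr17:34287860-34287927 and Insig1 on the plus strand at chr5:28071162-28071206. Hmgcs1 lies on the plus strand at chr13:119690184-119690252, G6pc on the plus strand at chr11:101367548-101367615 and Angptl8 on the plus strand at chr9:21835350-21835417. All are upstream of the gene start, with the motif beginning 179, 74, 241, 137, 138 and 130 bases before it in that order. In Insig1 and G6pc the motif is on the opposite strand, so its reverse complement is in capitals. The position given for Hmgcs1 is that of the SREBP motif, and the stretch also holds the reverse complement of TGACGT.
Ehhadh: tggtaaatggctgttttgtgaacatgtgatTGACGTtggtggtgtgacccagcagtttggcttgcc
H2-Aa: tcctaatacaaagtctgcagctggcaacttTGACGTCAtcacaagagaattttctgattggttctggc
Insig1: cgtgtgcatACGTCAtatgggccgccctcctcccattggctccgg
Hmgcs1: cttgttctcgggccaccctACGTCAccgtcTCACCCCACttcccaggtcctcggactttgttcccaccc
G6pc: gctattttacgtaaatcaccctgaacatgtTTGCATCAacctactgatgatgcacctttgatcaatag
Angptl8: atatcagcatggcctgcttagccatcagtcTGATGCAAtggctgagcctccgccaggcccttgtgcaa

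The 552 genes were then read against 44 lists of pathway genes, which hold 1081 distinct genes. Of the 552, 181 were in at least 1 list, 107 of the higher and 74 of the lower ones, so most genes past 2-fold lie outside them. Beside every count past 2-fold below stands the same rule over all genes, 2.59% higher and 2.1% lower, with a median of 0.01. Counts above or below 0 stand beside 6097 of all 11785 measured genes above 0.

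**Figure D3:**
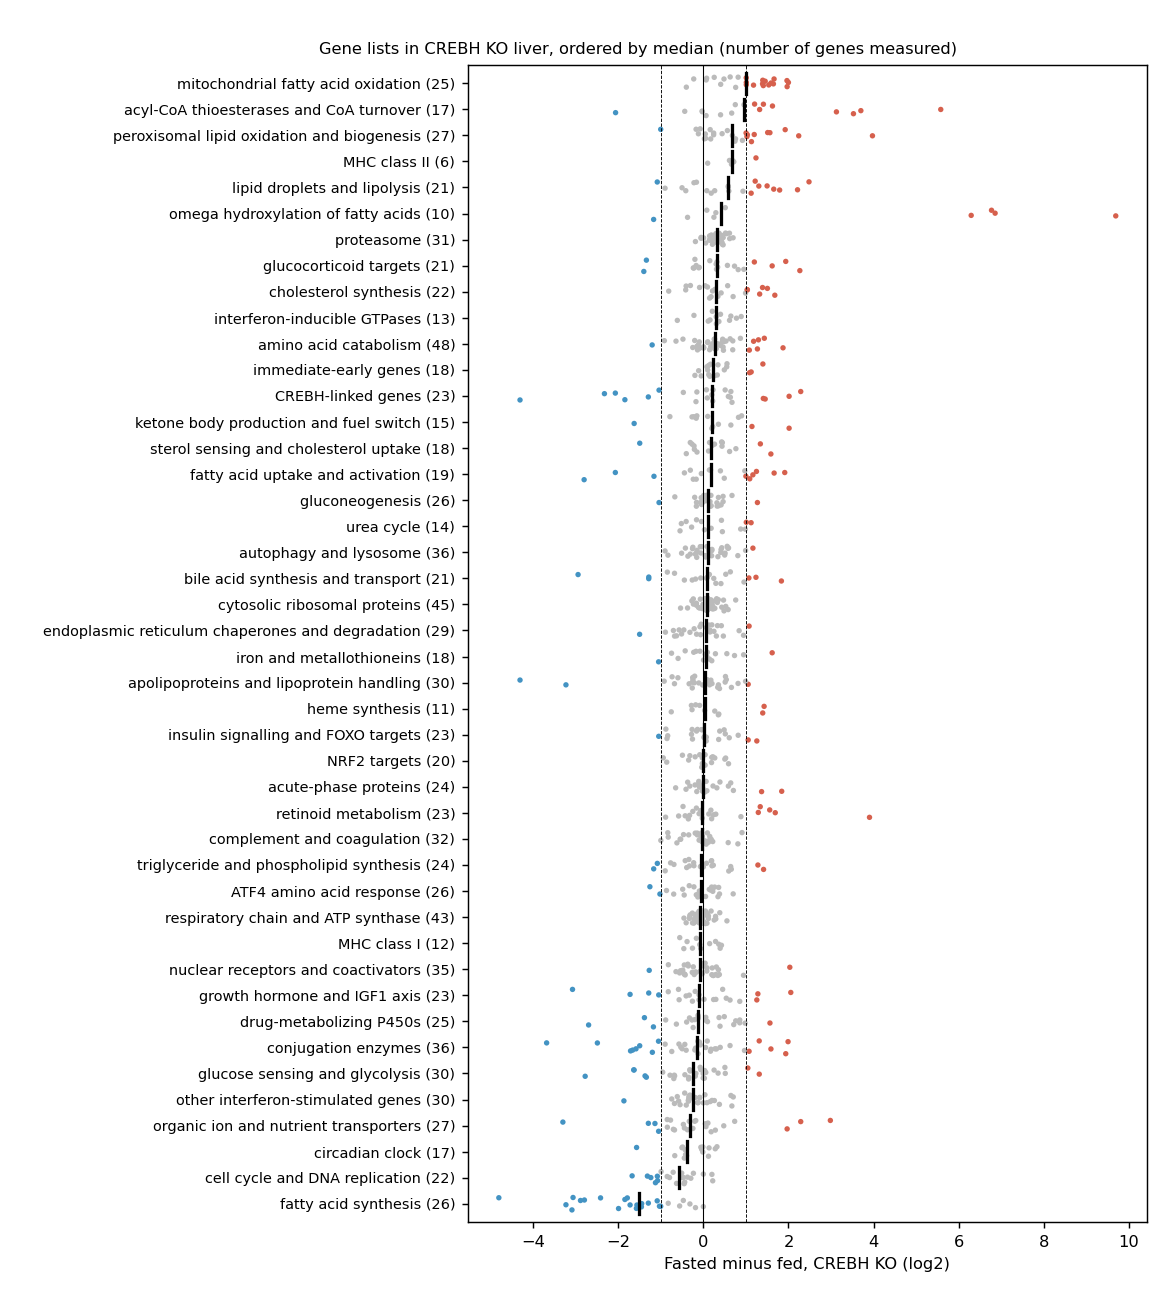
Fasted minus fed difference in CREBH KO liver (log2) for each measured gene of 44 lists, ordered by list median (black bar), with the number of genes measured in brackets. Red and blue points are at least 2-fold higher or lower, and points are spread vertically for legibility. Mitochondrial fatty acid oxidation has the highest median (1.01) and fatty acid synthesis the lowest (-1.52).

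Fatty acid oxidation stood highest. Of 25 measured genes of mitochondrial oxidation, 15 were higher by at least 2-fold in the fasted KO pool and 0 lower, with a median of 1.01 and 23 of 25 above 0. Entry into the mitochondrion was represented by the carnitine transporter Slc22a5 (7.10 fed, 9.07 fasted), the carnitine-acylcarnitine carrier Slc25a20 (8.69, 10.66), the rate-setting transferase Cpt1a (11.13, 12.58) and its partner Cpt2 (12.01, 13.01). These are differences of 1.97, 1.97, 1.45 and 1.01, and the second probe of Cpt1a gave 0.85. The acyl-CoA dehydrogenases for long and medium chains, Acadl (9.03, 11.03) and Acadm (13.34, 14.75), were higher by 2.0 and 1.41. Both subunits of the trifunctional protein were higher too, Hadha (9.50, 10.89) by 1.40 and Hadhb (11.96, 13.55) by 1.59. The isomerases Eci1 and Eci2, which handle unsaturated chains, were higher by 1.54 and 1.66, and Etfdh, which passes the electrons to the respiratory chain, by 1.65. Short-chain members moved less: Acads read 9.61 and 10.24 (0.63), Echs1 12.76 and 13.16 (0.41), and Hadh 12.64 and 12.41 (-0.22). In WT 11 of the same 25 were at least 2-fold higher, with a median of 0.71.

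Peroxisomal genes showed the same direction, with 10 of 27 at least 2-fold higher, 1 lower and a median of 0.68. Beside Ehhadh they included the isomerase Ech1 (12.04, 14.28, difference 2.24), the thiolase Acaa1b (13.01, 14.93, difference 1.92) and the carnitine octanoyltransferase Crot (12.49, 14.05, difference 1.56). Pex11a, which drives peroxisome division, went from 12.81 to 14.32 (1.51), whereas most other biogenesis genes, such as Pex13 (0.24), Pex14 (0.16) and Pex2 (0.06), stayed under 2-fold. Acox3, an oxidase of branched chains, was the exception at 9.79 and 8.79 (-1.0). Of 10 omega hydroxylases only the Cyp4a genes named above passed 2-fold upward, Cyp4f14 was lower (12.85, 11.68, difference -1.17), and Cyp4a12a (0.30) and Cyp4a12b (0.25) differed little. Thioesterases and enzymes of coenzyme A turnover had 8 of 17 at least 2-fold higher, 1 lower and a median of 0.96. Among them the pantothenate kinase Pank1 went from 9.10 to 10.51 (1.41), and the CoA diphosphatase Nudt7, which degrades CoA in peroxisomes, from 14.66 to 12.60 (-2.06).

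Ketone body genes were split. Pdk4, which shuts pyruvate out of the citric acid cycle, went from 8.78 to 10.79 (2.02), and the thiolase Acat1 from 11.40 to 12.54 (1.14). The ketone body transporter Slc16a6 was lower (10.01, 8.38, difference -1.62). The list as a whole had 2 of 15 genes higher and 1 lower, with a median of 0.20 against 0.70 in WT, where 4 were higher and 2 lower.

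Genes of the lipid droplet were higher in part, with 8 of 21 at least 2-fold higher, 1 lower and a median of 0.59. That median was 0.31 with no filter on dim probes and 1.20 with the scanner's processed signal, where it was above that of mitochondrial oxidation (1.09). The coat proteins Plin2 (13.29, 14.95), Plin4 (7.38, 9.17) and Plin5 (10.81, 13.02) were higher by 1.65, 1.79 and 2.21. The droplet-associated dehydrogenase Hsd17b11 went from 11.39 to 13.87 (2.48), and its relative Hsd17b13 from 12.30 to 13.79 (1.50, with another probe at 0.36). The triglyceride lipase Pnpla2 went from 9.94 to 11.25 (1.30), while its activator Abhd5 went from 9.40 to 8.32 (-1.08, with another probe at -0.30). Cidec, which fuses droplets, read 6.21 and 6.80 (0.59), close to the background limit when fed. G0s2, an inhibitor of Pnpla2, read 10.62 and 10.89 (0.27). In the WT pools Cidec and G0s2 were higher by 2.48 and 2.28.

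Uptake and activation of fatty acids had 6 of 19 genes higher and 3 lower, with a median of 0.17. Long-chain acyl-CoA synthetase Acsl1 (14.45, 15.69) and the transporter Cd36 (7.31, 8.48) were higher by 1.25 and 1.16. The binding proteins went different ways: Fabp7 from 7.28 to 9.20 (1.91), Fabp4 from 9.07 to 10.74 (1.66), Fabp1, the main one of hepatocytes, from 17.08 to 17.03 (-0.05), and Fabp2 from 12.31 to 10.24 (-2.07). Fabp2 was higher by 1.26 in WT. Triglyceride and phospholipid synthesis had 2 of 24 higher, among them the acyltransferase Gpat3 (9.01, 10.42, difference 1.42), and 2 lower, the choline kinase Chka (-1.08, with another probe at -0.49) and Mogat2 (-1.16). Its median of -0.04 changed sign between scalings. Lpin1, a phosphatidate phosphatase induced by fasting signals in many settings, read 10.19 and 10.26 in KO (0.07, another probe at -0.30) and was higher by 2.10 in WT. Its KO difference was below the median of all genes under some scalings.

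Fatty acid synthesis was the list with the most members past 2-fold. Of 26 measured genes 20 were at least 2-fold lower and 0 higher, with a median of -1.52, and the same rule called 17 of 26 lower in WT, where the median was -1.77. Besides enzymes the list holds regulators such as Srebf1, Mlxipl and Thrsp. It also holds Angptl8, which is counted again among the lipoprotein genes below. Precursor supply was lower at ATP citrate lyase Acly (13.89, 12.10, difference -1.78), at acetyl-CoA synthetase Acss2 (12.01, 10.98, difference -1.03) and at malic enzyme Me1 (12.54, 11.07, difference -1.47). Both acetyl-CoA carboxylases were lower, Acaca (12.88, 10.47, difference -2.41) and Acacb (12.12, 10.55, difference -1.57). Chain elongation followed: beside Elovl6, Elovl3 read 12.91 and 11.19 (-1.72), Elovl5 12.78 and 11.49 (-1.29), and Elovl2 12.62 and 10.78 (-1.84). Elovl5 and Elovl2 act on polyunsaturated chains, and in WT they differed by 0.13 and 0.39. The desaturases of that route, Fads1 (10.72, 10.25) and Fads2 (7.89, 7.07), differed by -0.47 and -0.82 in KO, under 2-fold. Mlxipl, which encodes ChREBP, went from 13.44 to 11.88 (-1.56), while Nr1h3, the liver X receptor alpha, differed by -0.18. Scd2 (7.32, 7.33) showed no difference.

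Cholesterol synthesis, which like fatty acid synthesis answers to SREBP factors, went the other way in these pools. Of 22 measured genes 6 were at least 2-fold higher and 0 lower, with a median of 0.31 and 17 above 0, and the median stayed between 0.25 and 0.37 above that of all genes in every setting tried. Sqle, the squalene epoxidase, went from 10.06 to 11.74 (1.68) in the KO pools and from 10.66 to 9.24 (-1.41) in WT. Idi1, the isopentenyl diphosphate isomerase, went from 11.29 to 12.32 (1.04) in KO and from 11.66 to 10.25 (-1.42) in WT. Fdft1 (9.78, 11.17), the squalene synthase, was higher by 1.39. Hsd17b7 (8.48, 9.99), Msmo1 (11.50, 12.83) and Cyp51 (7.39, 8.42), which act on the sterols after squalene, were higher by 1.51, 1.32 and 1.03. Hmgcs1, an early step of the pathway, read 12.81 and 13.80 (0.99), just under 2-fold. Not all steps were higher: Fdps read 13.33 and 13.24 (-0.09, above the median of all genes under some scalings), Sc5d 12.92 and 12.51 (-0.41) and Acat2 12.36 and 11.54 (-0.81). In WT 0 of 22 were at least 2-fold higher and 9 were lower, with a median of -0.89. The SREBP motif was in the promoter window of 1 of the 17 list genes with a promoter in the table, Hmgcs1, printed above.

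Sterol regulators did not share one direction. Srebf2, the factor of the cholesterol programme, read 7.21 and 7.98 in KO (0.77), and Insig1, which holds SREBP in the endoplasmic reticulum and is itself an SREBP target, 10.53 and 9.04 (-1.49). Mylip, a ubiquitin ligase, went from 7.42 to 9.01 (1.59). Npc1, the lysosomal cholesterol exporter, went from 8.36 to 9.70 (1.34). In bile acid synthesis 3 of 21 genes were higher and 3 lower. Cyp8b1, the 12-alpha hydroxylase of cholic acid, went from 9.14 to 10.97 (1.83), Cyp7a1, the rate-setting enzyme, from 8.19 to 8.83 (0.64), and Cyp7b1 of the alternative pathway from 14.30 to 13.02 (-1.28). The export pump Abcb11 (13.76, 12.48) differed by -1.28, and the phospholipid flippase Abcb4 (13.72, 14.79) was higher by 1.07.

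**Figure D4:**
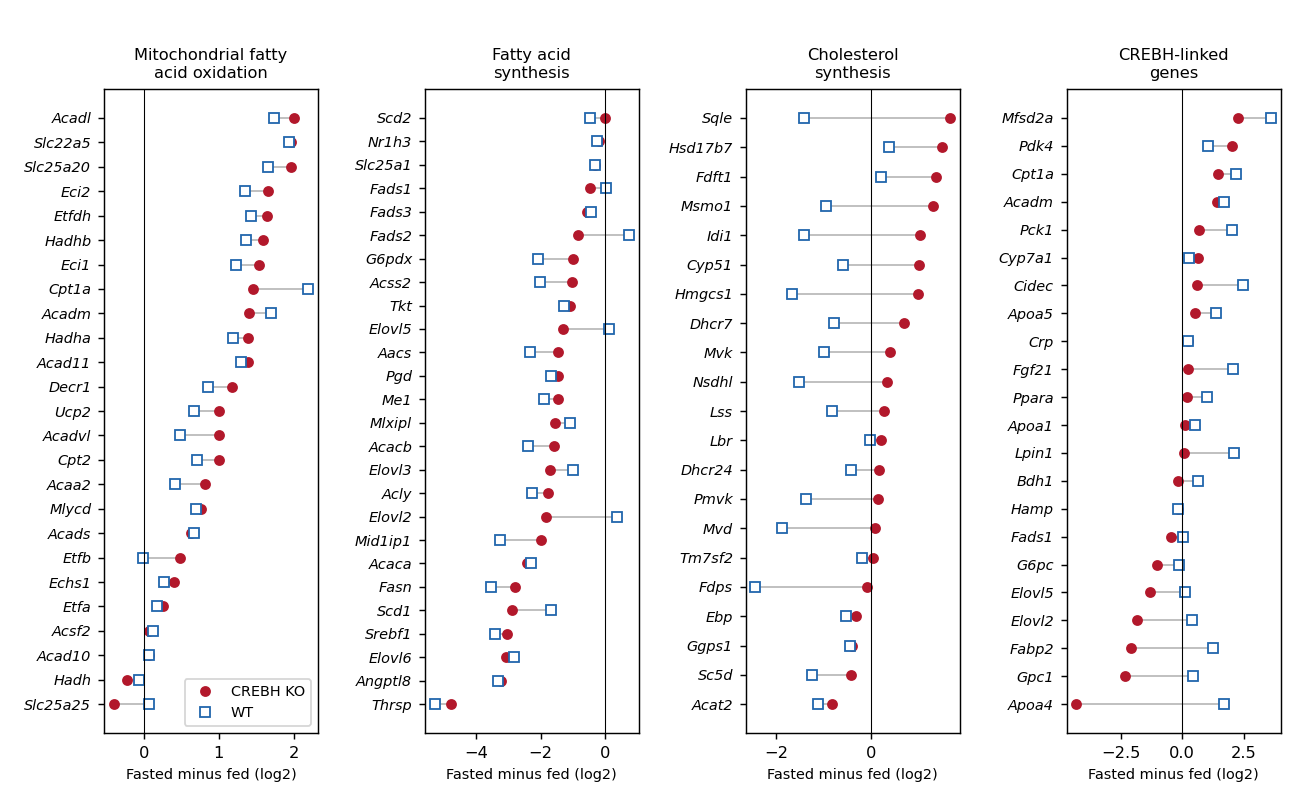
Fasted minus fed difference (log2) of measured genes in 4 lists, in CREBH KO liver (filled circles) and WT liver (open squares), sorted by the KO value within a list. Each point is a difference between 2 pools. For cholesterol synthesis 16 of the 21 KO points drawn lie above 0, and the WT median of the whole list is -0.89. For CREBH-linked genes the medians of the whole list are 0.20 in KO and 1.06 in WT.

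Genes linked to CREBH were set out as a list from general knowledge, drawn up with results of these data known, so that its direction is not independent evidence. The links were not checked gene by gene against a source, and membership of Gpc1, Mfsd2a, Fabp2 and Lpin1 is unsure. In the KO pools 4 of the 23 measured members passed 2-fold upwards and 6 downwards, with a median of 0.20, and in the WT pools 12 were higher and 0 lower, with a median of 1.06. Fgf21, the fasting hormone of liver, read 6.43 and 6.65 in KO (0.22), close to the background limit on both arrays, and was higher by 2.06 in WT. Pck1, the rate-setting enzyme of gluconeogenesis, read 14.87 and 15.54 in KO (0.67, against 2.01 in WT). Apoa5, an activator of lipoprotein lipolysis, read 10.05 and 10.56 (0.51, against 1.37), and Ppara 12.45 and 12.66 (0.20, with probes between -0.19 and 0.45, against 0.998 in WT). Not all members were low in KO: the lysophospholipid transporter Mfsd2a went from 6.43 to 8.72 (2.29, against 3.60 in WT), and Cpt1a, Acadm and Pdk4 were given above. Gpc1, a glypican, went from 9.06 to 6.74 (-2.32, against 0.43). The comparison of KO with WT differences has no test here, since each rests on 1 pool per state and both share the arrays.

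Among apolipoproteins and lipoprotein enzymes, Apoa4 and Angptl8 were the 2 of 30 genes past 2-fold downward, and Angptl4, a lipase inhibitor induced by fasting, the only one upward (13.70, 14.75, difference 1.05, against 2.61 in WT). The structural apolipoproteins Apob (14.96, 14.71), Apoa1 (14.91, 15.01) and Apoc3 (16.91, 16.57) differed by less than 0.5 in size.

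Of 30 genes of glucose sensing and glycolysis 5 were at least 2-fold lower and 2 higher. Their median was -0.25, and 0.28 without normalization between arrays. Of the lower genes, 4 were fructokinase Khk (15.89, 14.26, difference -1.63), the glycogen phosphorylase Pygl (14.36, 12.74, difference -1.63), Gpi1 (-1.37) and the pyruvate kinase Pklr (8.83, 7.49, difference -1.34). Middle steps such as Aldoa (0.03), Pgk1 (0.00) and Tpi1 (0.00) were level. In gluconeogenesis 1 of 26 genes was higher and 1 lower, with a median of 0.12. Got1, an aspartate aminotransferase, went from 13.004 to 14.28 (1.27), and G6pc, which releases free glucose, from 14.34 to 13.30 (-1.04, against -0.12 in WT). Fbp1 (15.88, 16.06), Pcx (13.62, 13.78) and the coactivator Ppargc1a (8.05, 8.40) differed by 0.18, 0.16 and 0.35, the first below the median of all genes under some scalings.

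Amino acid catabolism had 6 of 48 genes higher, 1 lower and a median of 0.27. Mat1a, which makes S-adenosylmethionine, went from 13.49 to 15.37 (1.87), the tryptophan dioxygenase Tdo2 from 11.85 to 13.28 (1.43) and Aass of lysine breakdown from 13.54 to 14.83 (1.30). Ahcy, Oat and Got1 were the other members past 2-fold, and Ddc was lower (-1.20). In the urea cycle the first and last enzymes, Cps1 (12.01, 13.13) and Arg1 (13.79, 14.80), were higher by 1.12 and 1.01, whereas Otc (12.87, 12.60) and Ass1 (16.07, 16.10) differed by -0.27 and 0.03. Genes of the ATF4 amino acid response did not move as a group: 0 of 26 were higher and 2 lower, Atf5 (15.09, 14.07, difference -1.02) and Nupr1 (8.39, 7.14, difference -1.25), and the median of -0.05 changed sign between scalings. Chaperones and degradation factors of the endoplasmic reticulum, the compartment that holds CREBH, had 1 of 29 higher, Derl3 (8.74, 9.81, difference 1.08), and 1 lower. That one was the stress sensor Ern1, with 9.62 and 8.12 (-1.50), while Hspa5 (14.78, 14.94) and Xbp1 (13.97, 13.92) differed by 0.16 and -0.05.

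Hormone targets gave small lists past 2-fold. Under insulin and FOXO control Igfbp1 went from 12.71 to 13.97 (1.26) and Bcl6, a repressor of lipid oxidation genes, from 12.10 to 11.05 (-1.05). Irs2 (0.03, below the median of all genes under some scalings) and Foxo1 (-0.16) differed little. Among glucocorticoid targets 4 of 21 were higher and 2 lower. Gadd45b went from 7.06 to 9.33 (2.27), the estrogen sulfotransferase Sult1e1 from 7.02 to 8.95 (1.94, against -0.20 in WT), the metallothionein Mt2 from 11.997 to 13.62 (1.62) and Fkbp5 from 9.63 to 10.83 (1.20). The steroid carrier gene Serpina6 was lower (12.87, 11.48, difference -1.40, another probe at -0.93). In the growth hormone axis Igfbp2 went from 12.03 to 14.09 (2.06) and Igf1 from 13.89 to 13.79 (-0.10, above the median of all genes under some scalings). Hsd3b5 and Elovl3, 2 male-biased targets of growth hormone, were lower as given above, but the axis had no single direction. Of its 23 measured genes 3 were at least 2-fold higher and 4 lower, and 10 were above 0. Their median was -0.10, and above 0 without normalization between arrays. Clock genes had 0 of 17 higher and 1 lower, Bhlhe40 (10.08, 8.51, difference -1.57). Their median of -0.39 was -0.22 when every spot had to be above background, -0.06 with no filter on dim probes and 0.23 without normalization between arrays. Per1 (10.09, 10.41), Dbp (12.07, 11.68) and Usp2 (8.90, 8.84) differed by 0.32, -0.39 and -0.06 in KO, the last above the median of all genes under some scalings. In WT all 3 were higher, Per1 by 1.51, Dbp by 1.0 and Usp2 by 1.31. The sources used here do not give the time of day at which livers were taken.

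Immune lists differed in how they compared with WT, without a test. Of 13 interferon-inducible GTPases, which attack the vacuoles of intracellular pathogens, 0 passed 2-fold in KO and 11 were above 0, with a median of 0.31. Tgtp2 read 9.32 and 10.21 (0.89), Igtp 9.88 and 10.66 (0.78) and Iigp1 9.93 and 10.58 (0.65). In WT the same genes differed by -3.38, -1.87 and -1.10, and 8 of 13 were at least 2-fold lower, with a median of -1.07. All 6 measured genes of MHC class II, which present antigen on macrophages, dendritic cells and B cells, were above 0 in KO. H2-Aa went from 7.40 to 8.64 (1.24), the only one past 2-fold, while Cd74 read 10.25 and 10.94 (0.69) and H2-Ab1 10.94 and 11.61 (0.66). Their median was 0.68 in KO and -1.15 in WT. Of 30 other interferon-stimulated genes 20 were below 0 in KO. Their median was -0.25 in KO and -0.53 in WT, and in KO it was -0.13 with no filter on dim probes and 0.22 without normalization between arrays. Bst2, which tethers enveloped viruses, went from 13.31 to 11.45 (-1.86). MHC class I, with 0 of 12 past 2-fold, had a median of -0.07 that lay above 0 without normalization between arrays.

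Immediate-early genes had 3 of 18 higher and 0 lower in KO, namely Egr1 (6.63, 8.03, difference 1.40), Myc (6.44, 7.56, difference 1.12) and Klf2 (7.95, 9.04, difference 1.09). The fed signals of Egr1 and Myc were close to the background limit. Jun read 9.92 and 10.48 (0.56, against -1.17 in WT). Of 24 acute-phase genes 2 were at least 2-fold higher and 0 lower. The higher ones were Serpina3n (10.43, 12.28, difference 1.84) and the lipopolysaccharide binding protein Lbp (10.89, 12.26, difference 1.37). The median of the acute-phase list was -0.02 and lay between -0.35 and 0.32 over the settings tried. Of 32 complement and coagulation genes 0 passed 2-fold. In the cell cycle list 0 of 22 genes were higher and 6 lower, with a median of -0.57. Without normalization between arrays 2 were lower and the median was -0.27, and with the scanner's processed signal 12 were lower and it was -1.38. The replication helicase subunit Mcm6 went from 10.07 to 8.40 (-1.67), Cdc20 from 7.61 to 6.30 (-1.31) and the ribonucleotide reductase subunit Rrm2 from 8.89 to 7.66 (-1.23).

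Genes of foreign-compound metabolism were past 2-fold in both directions. Conjugation enzymes had 5 of 36 higher and 8 lower. The mu-class glutathione transferases were lower together, Gstm1 (15.39, 13.69, difference -1.71), Gstm2 (13.52, 11.03, difference -2.49) and Gstm3 (12.95, 11.37, difference -1.58), and probes of this family may read each other's transcript. Gstm4 was also lower (11.67, 10.62, difference -1.05), although another of its probes gave 0.46. The theta-class genes Gstt2 (10.28, 12.27) and Gstt3 (10.54, 11.61) were higher by 1.99 and 1.08. Among P450s, Cyp3a11, a main drug oxidase, went from 15.83 to 14.45 (-1.38, against -0.21 in WT) and Cyp2c39 from 9.90 to 11.46 (1.57). The receptor gene Nr1i3, which encodes CAR, went from 10.66 to 12.70 (2.03) and Pparg from 8.88 to 7.61 (-1.27), the 2 of 35 nuclear receptors and coactivators past 2-fold. Retinoid enzymes had 5 of 23 higher, with Rdh16 (9.38, 11.07, difference 1.69), Dhrs4 (1.56), Aldh1a1 (15.27, 16.61, difference 1.34, against -0.08 in WT) and Rdh9 (1.29) beside Retsat.

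Cell makeup was read from marker lists. Hepatocyte markers were bright in both pools, with albumin (Alb) at 17.15 and 17.47, and their median difference was 0.06, below 0 under some scalings. Markers of Kupffer cells and macrophages were above 0 in 16 of 18 genes, with a median of 0.54 and 1 past 2-fold. Ctss read 9.82 and 10.86 (1.04), Timd4 6.44 and 7.25 (0.80), Vsig4 10.37 and 10.93 (0.56) and Clec4f 11.06 and 11.33 (0.28), and the summed linear signal of the list went from 21259 to 27990. Sinusoidal endothelial markers were above 0 in 13 of 15 genes, with a median of 0.52, 1 past 2-fold (Lyve1, 7.10 and 8.60) and summed signals of 15347 and 21065. In WT the median was 0.15 for Kupffer cell and macrophage markers and 0.57 for sinusoidal endothelial markers. In a whole-liver pool more cells of a type and more RNA per cell cannot be told apart. The KO medians stand beside that of MHC class II (0.68 in KO, -1.15 in WT), and the part of cell makeup in it was not tested.

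Stellate cell markers were split, with 2 of 14 at least 2-fold lower, the collagens Col1a1 (8.93, 7.51, difference -1.42) and Col3a1 (9.77, 8.08, difference -1.68), while Dcn (12.79, 13.01) and Colec11 (10.47, 11.24) were higher by 0.22 and 0.77. The list's summed signals were 19769 and 23160. Of 10 cholangiocyte markers 5 were measured, of 18 lymphocyte markers 7 and of 12 neutrophil markers 5, and 0 of these passed 2-fold. Of 10 erythroid markers 7 were measured, with Alas2 lower (12.33, 11.04, difference -1.29). Of 10 adipocyte markers only Fabp4 was measured, and Adipoq, Lep and Plin1 were not well above background in Cy5 on both arrays. Of 14 genes of pancreas, gut or muscle 4 were measured and 0 passed 2-fold.

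**Figure D5:**
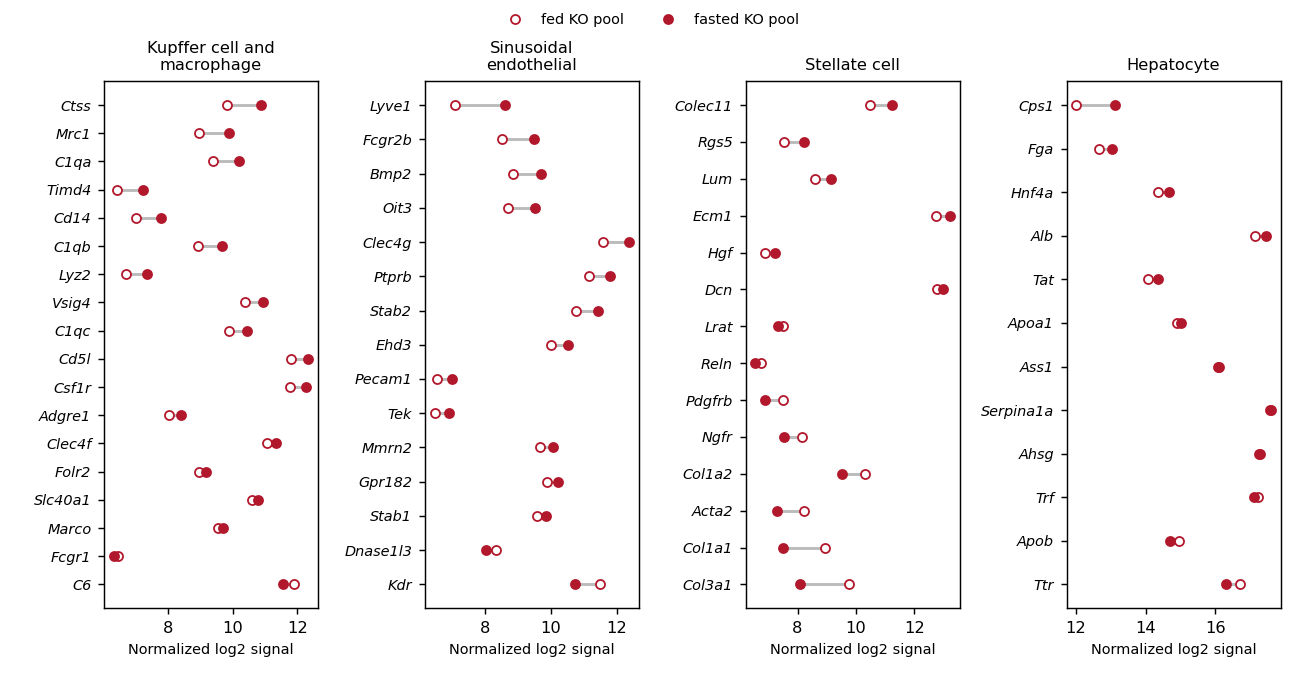
Normalized log2 signal of cell type markers in the fed (open) and fasted (filled) CREBH KO pool, 1 row per gene, ordered by the difference. Each point is 1 pool. Filled points lie to the right of open points for 16 of 18 Kupffer cell and macrophage genes and 13 of 15 sinusoidal endothelial genes, while hepatocyte genes are mixed (7 of 12).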

How the data were processed

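Pooled liver RNA was labelled with Cy3 (WT) and Cy5 (CREBH KO) on 2 Agilent two-colour arrays, both on 1 slide and read in 1 scan. Spot and background intensity values were deposited as medians over pixels by Agilent Feature Extraction 10.10.1.1 per the file headers, which name grid build mm9, without normalization by the authors. The authors' value table was not used.

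Median spot signals were background-corrected with normexp (offset 50), normalized by loess within arrays with the 3671 control spots at weight 0 and between arrays with Aquantile, in limma 3.58.1 under R 4.3.3, and checked on simulated data. Outlier spots (216 fed, 197 fasted) were dropped, and spots of a probe were averaged. On the fed and fasted arrays 42.9% and 45.8% of gene spots were well above background in Cy5, at median signals of 83 and 86 over backgrounds of 69 and 70, and 0 were saturated. The number of arrays limits the precision.

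Gene names came from the RefSeq accession of a probe through the table of GRCm38.p6, used for names only, which named 26762 of 55681 probes. For the 5405 genes with several probes the one of highest mean intensity was used. A gene was measured when at least 50% of its spots were well above background in Cy5 on both arrays.

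No test was run, since each group is 1 pool. Named genes were Creb3l3, the 15 highest and 15 lowest, up to 8 bounds per direction, and list members furthest from 0 or defining a list. Some genes are not reported here by name but stay in the counts and medians. Another probe's value is given where it was under 0.5 in the gene's direction. Members and lists were chosen with earlier results of these data known. The 9 alternatives changed the scaling, background, probe and filter choices.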

Additional observations from a re-analysis of the deposited data

Results flagged for a closer look

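These results stood out because the KO and WT pools differed by at least 2-fold in opposite directions, or because a list's medians had opposite signs in the genotypes and both exceeded 0.136 in size, the 95th percentile of the SD between spots of a probe. That cut is spot error of single probes and does not measure the spread of a list's median or the spread between mice. Each genotype has 1 pool per feeding state, both share the arrays, and the difference between genotypes was not tested.

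Apoa4 was lower in the fasted KO pool (-4.30) and higher in the fasted WT pool (1.69). Fabp2, a fatty acid binding protein best known from intestine, was lower in KO (-2.07) and higher in WT (1.26). Idi1 (1.04 in KO, -1.42 in WT) and Sqle (1.68 in KO, -1.41 in WT), both enzymes of cholesterol synthesis, went the other way. These 4 were the only named genes 2-fold apart in opposite directions. Each was read by 1 measured probe, and none changed sign under the scalings tried.

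Cholesterol synthesis as a list had a median of 0.31 in KO and -0.89 in WT. Interferon-inducible GTPases had 0.31 and -1.07, MHC class II genes 0.68 and -1.15, and immediate-early genes 0.22 and -0.15. With the scanner's processed signal the KO median was 0.47 for the GTPases and 0.40 for the immediate-early genes. Medians of opposite sign below that size in at least 1 genotype were seen for clock genes (-0.39 in KO, 0.06 in WT), drug-metabolizing P450s (-0.12, 0.14) and cytosolic ribosomal proteins (0.09, -0.09). All KO medians of the 4 lists stayed above that of all genes under every setting tried.

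Outside the named genes, 194 of 7485 unnamed probes well above background were at least 2-fold apart in KO, 101 higher and 93 lower. Without a gene name they enter none of the comparisons above.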

How the results depend on the processing

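The scaling between arrays is the choice that moved most. Without normalization between arrays, 1164 genes were at least 2-fold higher and 80 lower, against 305 and 247, since the median of all genes then stood at 0.44. All 305 stayed 2-fold higher there, and the 80 were all among the 247, as an upward shift of most genes gives by itself. Fatty acid synthesis then had 11 genes at least 2-fold lower against 20. With the scanner's own processed signal, 539 genes were higher and 524 lower, 294 and 247 of them shared with those reported. The other 7 settings gave 274 to 398 higher and 220 to 341 lower genes. No gene past 2-fold moved to the other side of the median of all genes under the 4 scaling alternatives. Mitochondrial oxidation had 14 to 20 genes at least 2-fold higher over the settings, against 15. Of 122 genes past 2-fold with another measured probe, 53 had a probe under 0.5 in the gene's direction. Only 18 higher and 30 lower genes came from the dimmest 3928, against 200 and 134 from the brightest 3928. No paired analysis was possible because each group is 1 pool without a replicate number, and no replicate could be left out.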

Other observations

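The general machinery of the cell differed little between the fed and fasted KO pools. Of 43 respiratory chain and ATP synthase genes 0 passed 2-fold in KO, with a median of -0.07 (above that of all genes without normalization between arrays) and values between -0.45 and 0.56. Of 45 cytosolic ribosomal protein genes 0 did, with a median of 0.09. Proteasome subunits showed a small difference of one sign, with 28 of 31 above 0 and a median of 0.31, but 0 past 2-fold. Psmd8 read 11.20 fed and 11.90 fasted (0.70). Autophagy and lysosome genes had 1 of 36 past 2-fold, the mitophagy receptor Bnip3 (12.64, 13.81, difference 1.17), and targets of NRF2 had 0 of 20.

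Heme synthesis was higher at its rate-setting enzyme Alas1 (13.82, 15.25, difference 1.43) and at Cpox (11.11, 12.50, difference 1.40), with 9 other genes under 2-fold. Iron handling was level, with hepcidin (Hamp) at 12.13 and 11.95 (-0.17). Among transporters Slc22a5 and Mfsd2a were higher beside Slc16a5, and Slc17a4 (8.99, 7.70, difference -1.29) and the manganese exporter Slc30a10 (8.49, 7.44, difference -1.05) were lower beside Slc22a7.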
